A study of Mus musculus with 23 samples.

Results

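The hypoxia-inducible factor gene Hif1a, the prolyl hydroxylase genes Egln1 and Egln3 and 7 genes induced by the factor (Vegfa, Car9, Slc2a1, Bnip3, Pdk1, Ankrd37 and Ndrg1) were followed in the small intestine of mice fed quercetin. The 10 genes were taken by the gene name printed with each spot of the array, which gave 16 of 62976 spots and 15 probes. All 10 were measured above background and stand among 21518 genes tested. RNA came from scrapings of the small intestine of male adult C57BL/6J mice with no genetic change in the labels. The HF-Q group (11 mice) ate a high-fat diet with 0.33% quercetin by weight for 12 weeks, and the HF group (12 mice) ate the high-fat diet alone for the same time. Before that, every animal had 3 weeks of normal-fat feeding, and food was withdrawn 2 to 4 hours before death. Of 24 animals at the outset, 1 on quercetin had an abscess and is not among the samples. RNA of each mouse, labelled with Cy5, was hybridised to its own array together with a Cy3-labelled equimolar pool of all mice. Each value below is a log2 ratio of a mouse to that pool, without a dye swap, so only differences between mice carry meaning.

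Hypoxia-inducible factor 1 is a transcription factor made of an alpha subunit, encoded by Hif1a, and the partner ARNT. In oxygenated cells the prolyl hydroxylases EGLN1, EGLN2 and EGLN3 use oxygen, iron and 2-oxoglutarate to mark the alpha subunit for destruction through VHL, so that its amount is set mainly at the level of the protein. The intestinal epithelium borders a lumen low in oxygen, and HIF in it is known for roles in barrier function and iron uptake. Quercetin, a plant flavonol that binds iron, inhibits prolyl hydroxylases in cultured cells. The arrays read RNA only, and neither HIF protein nor hydroxylation was measured.

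The factor binds a short core, ACGTG or GCGTG, near genes that it induces. RefSeq promoter windows of GRCm38.p6, from 250 bases before to 50 bases after the start of transcription, were found for 9 of the 10 genes (11 windows). Either core, read on both strands and counted where matches overlap, lay in 9 of the 11 windows, against 43.8% of all 32851 RefSeq windows. Each of the 9 genes had a window with a match, but Vegfa and Pdk1 had 2 windows each, 1 of them without a match. The Vegfa matches lay in the downstream window (chr17:46025114-46025413, minus strand), and the window at chr17:46032328-46032627 held 0. The median GC content was 65.3% in the windows of these genes and 52.7% in all windows, so the windows also differ in base composition. ACGTG was in 8 of the 11 windows and GCGTG in 6, against 19.6% and 32.4% of all windows. A match to these letters is a description of the sequence and is not evidence of binding. Windows of 4 genes are shown because their RNA spans the variation among mice described below, and core matches are in capitals. The SD over mice exceeded that of 92.6% of all genes for Ankrd37, 85.2% for Bnip3, 45.6% for Slc2a1 and 14.7% for Car9. The windows lie at chr8:45999801-46000100 (minus strand, Ankrd37), chr7:138909457-138909756 (minus strand, Bnip3), chr4:43506776-43507075 (plus strand, Car9) and chr4:119108495-119108794 (plus strand, Slc2a1), each written 5′ to 3′ on the strand of the gene.
Ankrd37: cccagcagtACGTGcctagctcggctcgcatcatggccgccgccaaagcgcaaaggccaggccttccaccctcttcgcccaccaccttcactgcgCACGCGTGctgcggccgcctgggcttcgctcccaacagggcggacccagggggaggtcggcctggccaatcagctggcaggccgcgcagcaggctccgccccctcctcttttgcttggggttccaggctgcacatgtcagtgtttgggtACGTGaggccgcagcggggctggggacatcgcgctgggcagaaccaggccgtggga
Bnip3: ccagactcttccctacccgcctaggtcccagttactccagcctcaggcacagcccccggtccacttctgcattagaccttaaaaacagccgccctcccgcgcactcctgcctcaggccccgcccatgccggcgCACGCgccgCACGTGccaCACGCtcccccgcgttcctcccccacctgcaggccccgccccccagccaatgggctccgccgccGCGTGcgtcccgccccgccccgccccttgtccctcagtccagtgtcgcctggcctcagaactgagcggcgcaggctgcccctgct
Car9: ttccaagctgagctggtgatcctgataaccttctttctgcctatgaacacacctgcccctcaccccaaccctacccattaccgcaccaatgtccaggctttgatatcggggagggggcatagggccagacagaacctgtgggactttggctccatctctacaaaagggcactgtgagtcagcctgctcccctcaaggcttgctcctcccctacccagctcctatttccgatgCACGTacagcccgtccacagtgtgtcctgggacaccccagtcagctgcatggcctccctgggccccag
Slc2a1: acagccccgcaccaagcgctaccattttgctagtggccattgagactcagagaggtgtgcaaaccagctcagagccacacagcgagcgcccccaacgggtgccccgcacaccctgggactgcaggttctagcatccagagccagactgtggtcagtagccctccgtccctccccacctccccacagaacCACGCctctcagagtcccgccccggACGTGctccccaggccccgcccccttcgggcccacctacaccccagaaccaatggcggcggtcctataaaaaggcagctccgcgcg
The Bnip3 window held 5 matches at 4 places, since 1 place reads ACGTG on either strand, and the Ankrd37 window held 4 at 3 places. The Slc2a1 window held 2 matches, 61 and 36 bases before the start. The only match in the Car9 window read ACGTG on the opposite strand, 18 bases before the start.

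The tissue carried the label's identity, with all 8 enterocyte markers above background on all 23 arrays. A protocol field names liver as the source of the RNA, against every other label. Among hepatocyte markers, Ahsg and Mup3 exceeded background on 0 arrays, Fgb and Hpx on 2 each, and Alb on 11. Median Cy5 spot signal per array was 93.9 to 122.6 intensity units. Markers of pancreatic acinar cells varied most between mice, and their mean log2 ratio (8 of 9 measured) ranged from -3.57 to 2.27 in HF-Q mice and from -3.52 to 1.81 in HF mice. In scraped tissue, fewer cells of a type and less RNA per cell cannot be told apart. HF-Q replicates 1 to 3 and HF replicates 1 to 4 stood apart by a low crypt base and cycling score, the mean of 6 of 6 markers including Lgr5, Olfm4 and Mki67. The score was -0.92 to -0.41 in these 3 HF-Q mice and -0.72 to -0.34 in these 4 HF mice, against 0.03 to 0.34 in the other 8 HF-Q mice and -0.18 to 0.47 in the other 8 HF mice. Smooth muscle scores of the same 7 mice were also the lowest of their diets, at -1.61 to -0.97 in the HF-Q mice and -0.86 to -0.61 in the HF mice. The other 8 HF-Q mice ran from -0.68 to 0.89 and the other 8 HF mice from -0.31 to 1.19. Over both diets together the muscle scores of the 7 mice therefore overlapped those of the others. Several results are also given for the other 16 mice alone, a set chosen after seeing the data. The arrays lay on 3 slides, with 4, 3 and 4 HF-Q mice and 4 HF mice on each.

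None of the 10 genes passed the threshold between HF-Q and HF mice. By limma over all genes, 0 of 10 had an adjusted p under 0.05, as did 0.00% of all genes tested. At an unadjusted p under 0.05 only Pdk1 passed, in the higher direction (1 of 10, and 0 of 10 in the lower), against 4.52% of all genes, 2.11% higher and 2.42% lower in HF-Q mice. A log2 fold change here is HF-Q over HF, so that a positive value means higher with quercetin. In the 16 mice, 0 of 10 passed as well. The 10 estimates were higher in HF-Q mice for 4 genes and lower for 6, with a median log2 fold change of -0.03, while over all genes 48.1% were higher and the median was -0.0038. With each array centred on its median in place of loess, 8 were higher and 2 lower, and the median over all genes moved to 0.05. In the 16 mice 4 of the 10 were lower, with a median of 0.015 (-0.0074 over all genes). The 95% confidence intervals of all 10 fold changes lay between 0.718-fold and 1.21-fold.

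**Figure D1:**
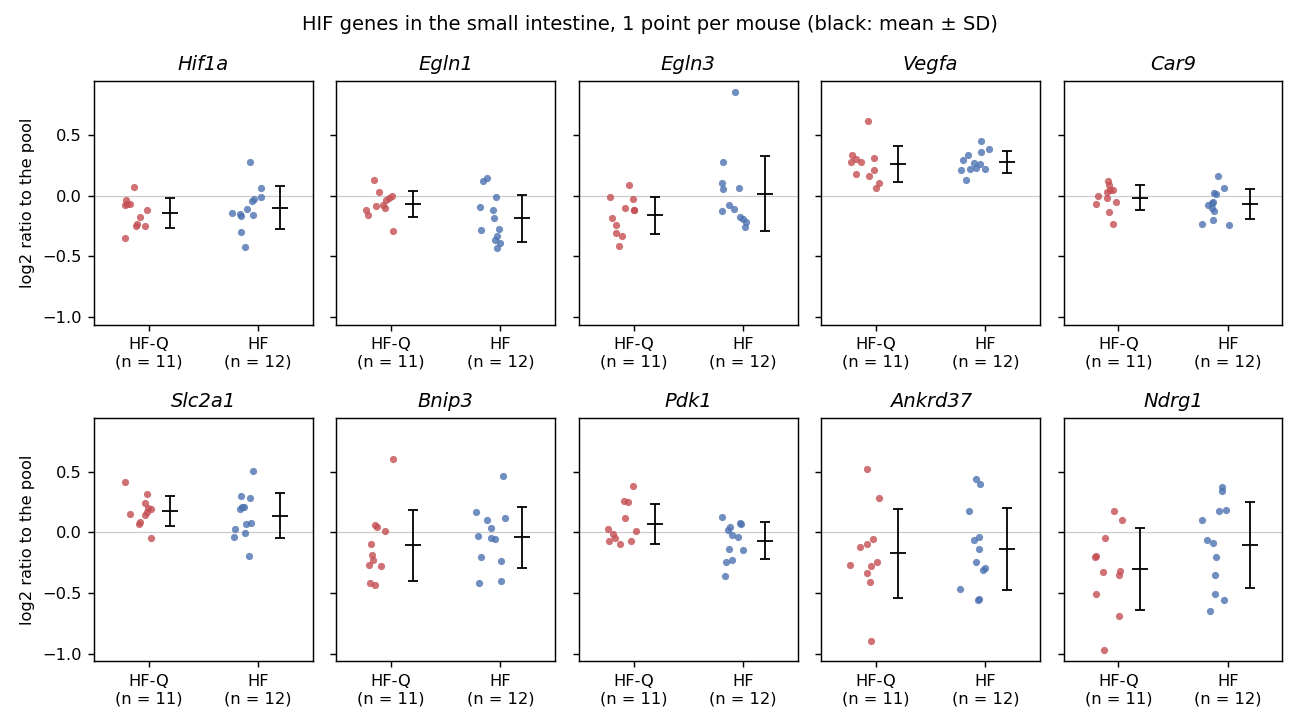
Log2 ratio to the pool (y axis) of each of the 10 genes in every mouse, HF-Q (red, 11 mice) left of HF (blue, 12 mice); black bars are mean ± SD. The diets overlap for every gene, and Ankrd37, Ndrg1 and Bnip3 spread more widely than Vegfa and Car9.

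Hif1a, the oxygen-regulated subunit itself (probe at chr12:75047269-75047329 of genome build mm9), had log2 ratios of -0.35 at the lowest, -0.12 at the median and 0.07 at the highest in HF-Q mice, against -0.42, -0.13 and 0.28 in HF mice. The HF-Q mice lay wholly within the range of the HF mice. HF-Q over HF, the log2 fold change was -0.04 ± 0.06 (SE; limma, adjusted p = 0.964, n = 11 and 12). A second Hif1a probe, for a separate transcript record, was well above background on 1 array and was not used.

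Egln1 and Egln3, which encode hydroxylases that act on the HIF alpha subunits, had estimates of opposite sign. Egln3 is itself a known HIF target. Egln1 had log2 ratios of -0.29, -0.08 and 0.13 (lowest, median and highest) in HF-Q mice, against -0.43, -0.23 and 0.14 in HF mice. The value was above the HF median in 10 of 11 HF-Q mice, but every HF-Q mouse lay inside the HF range, and the log2 fold change of 0.12 ± 0.07 did not pass (limma, unadjusted p = 0.090, adjusted p = 0.952). The Egln1 probe was dim, at a median Cy5 signal of 121 against a local background of 40.0 intensity units. The scanner files place only 13 bases of it on the genome, at chr8:127432487-127432499 of mm9. With the authors' deposited log10 ratios the log2 fold change was 0.32, and with Cy5 alone it was 0.07, so its size depended on the setting. Over the mice Egln1 was negatively related to the endothelial and smooth muscle scores (r = -0.481 and -0.473, permutation, adjusted p = 0.269 for each). With the acinar score r was 0.443 (permutation, adjusted p = 0.319). None of these relations passed. With the acinar and smooth muscle scores as covariates, the Egln1 diet estimate stayed positive and did not pass by limma. The part of these cells in the Egln1 values was not otherwise tested.

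Egln3 (probe at chr12:55280953-55281012, mm9) had log2 ratios of -0.42, -0.12 and 0.09 in HF-Q mice, against -0.26, -0.09 and 0.85 in HF mice. A single HF mouse, replicate 2 at 0.85, stood far above the other HF mice, of which the next was at 0.28. The log2 fold change was -0.18 ± 0.10 (limma, unadjusted p = 0.082, adjusted p = 0.952), and it was -0.10 without that mouse. A second Egln3 probe followed the first over the mice (r = 0.937) and gave a log2 fold change of -0.16.

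Among genes of glucose and mitochondrial metabolism, Slc2a1 encodes the glucose transporter GLUT1 and Pdk1 a kinase that shuts pyruvate out of the mitochondrial citrate cycle. Pdk1 (chr2:71739688-71739747, mm9) had log2 ratios of -0.09, 0.01 and 0.39 in HF-Q mice, against -0.36, -0.03 and 0.12 in HF mice. The 3 highest mice were all HF-Q mice and lay above the HF range, and 7 of 11 HF-Q mice exceeded the HF median. The log2 fold change was 0.14 ± 0.06, with an interval of 0.0032 to 0.27 and an unadjusted p of 0.045, and it did not pass (limma, adjusted p = 0.952). The Pdk1 estimate was above 0 within each slide (0.13, 0.07 and 0.21). Over the mice Pdk1 was negatively related to the goblet marker score (r = -0.602, permutation p = 0.0024, adjusted p = 0.110). Its r with the enterocyte score was -0.410 (permutation, adjusted p = 0.334), and its highest was 0.327, with the crypt score. The goblet and enterocyte scores differed between diets by -0.10 and -0.13 (HF-Q minus HF). None of these relations passed, and the part of these cells in the Pdk1 values was not tested. The unadjusted p stayed under 0.05 in 14 of 23 fits that each left out 1 mouse and in 8 of 14 other settings, and the estimate was 0.10 in the 16 mice (limma, adjusted p = 0.934).

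Slc2a1 (chr4:118809864-118809923, mm9) had log2 ratios of -0.04, 0.17 and 0.41 in HF-Q mice, against -0.20, 0.14 and 0.50 in HF mice. The diets overlapped throughout, with a log2 fold change of 0.04 ± 0.07 (limma, adjusted p = 0.969).

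Bnip3, which marks mitochondria for removal by autophagy, ranged from -0.43 over a median of -0.18 to 0.61 in HF-Q mice, against -0.42, -0.04 and 0.47 in HF mice (chr7:146082760-146082819, mm9). A single mouse in each diet stood apart at the top, HF-Q replicate 7 and HF replicate 3. Between diets the log2 fold change was -0.07 ± 0.11 (limma, adjusted p = 0.969), and it was -0.14 without HF-Q replicate 7, -0.02 without HF replicate 3 and 0.03 in the 16 mice. Of 2 further Bnip3 probes, the bright one agreed closely over mice (r = 0.984), and the dim one, near background, less so (r = 0.438).

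Car9 encodes a carbonic anhydrase at the cell surface that takes part in acid and base balance, and Vegfa the main growth factor of blood vessels. Car9 (chr4:43526518-43526577, mm9) had log2 ratios of -0.24, -0.00023 and 0.12 in HF-Q mice, against -0.24, -0.07 and 0.16 in HF mice. It was the steadiest of the 10 genes over mice, with an SD of 0.114 that exceeded the SD of 14.7% of all genes. Its log2 fold change was 0.05 ± 0.05 (limma, adjusted p = 0.952). Within slides the Car9 difference was -0.17, 0.14 and 0.21 on slides 1, 2 and 3, so that the slides did not share a sign. The diet by slide interaction in limma had an unadjusted p of 0.0011 for Car9 and an adjusted p of 0.950, which did not pass.

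Vegfa (chr17:46154387-46154446, mm9) had log2 ratios of 0.06, 0.28 and 0.61 in HF-Q mice, against 0.13, 0.27 and 0.45 in HF mice. Every mouse of both diets was above 0, and the diets overlapped, with a log2 fold change of -0.02 ± 0.05 (limma, adjusted p = 0.978). A second Vegfa probe correlated with the first at 0.608 and gave -0.09. The within-slide differences were -0.17, -0.06 and 0.16, and the diet by slide interaction did not pass (limma, unadjusted p = 0.019, adjusted p = 0.950).

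Ndrg1, a stress-responsive gene of epithelial differentiation, had the largest estimate of the 10 in size. Its log2 ratios were -0.97, -0.32 and 0.18 in HF-Q mice, against -0.64, -0.07 and 0.37 in HF mice (chr15:66761057-66761116, mm9). Only 3 of 11 HF-Q mice were above the HF median, and the 2 lowest mice, HF-Q replicates 1 and 5, lay below the HF range. The log2 fold change of -0.20 ± 0.14 did not pass (limma, unadjusted p = 0.152, adjusted p = 0.952). It was lower in HF-Q mice within each slide (-0.26, -0.24 and -0.16), and -0.13 without HF-Q replicate 1.
The acinar marker score was negatively related to Ndrg1 over the mice (r = -0.49, permutation p = 0.017, adjusted p = 0.269), and HF-Q replicate 1 had the highest acinar score of all mice, 2.27. With the acinar and smooth muscle scores as covariates, the log2 fold change of Ndrg1 was -0.29 (limma, adjusted p = 0.345). That fit lowered p for many genes, with 2674 genes at an unadjusted p under 0.05 in limma, against 973 in the main fit.

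Ankrd37, which encodes a small ankyrin repeat protein strongly induced by hypoxia in many cells, had log2 ratios of -0.89, -0.24 and 0.52 in HF-Q mice, against -0.56, -0.19 and 0.44 in HF mice (chr8:47082404-47082463, mm9). Both the lowest mouse, HF-Q replicate 6, and the highest, HF-Q replicate 1, ate quercetin. The log2 fold change was -0.04 ± 0.14 (limma, adjusted p = 0.986), and its sign turned without HF-Q replicate 6 (0.04), HF replicate 1 (0.02) or HF replicate 4 (0.01) and in the 16 mice (0.01). Ankrd37 and Ndrg1 varied most over mice of the 10 genes, and the SD of Ndrg1 exceeded that of 93.1% of all genes.

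**Figure D2:**
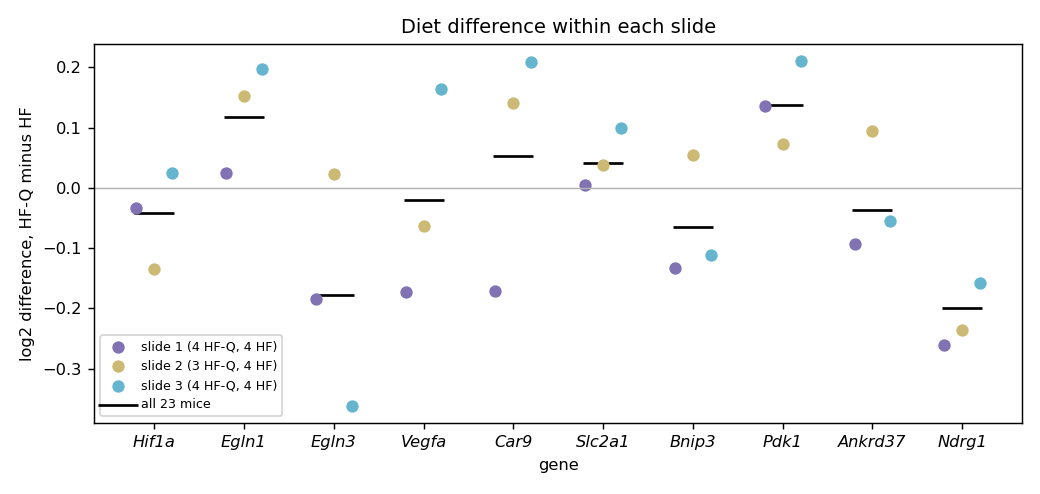
Difference in mean log2 ratio, HF-Q minus HF (y axis), within each of the 3 slides (coloured points) and over all 23 mice (black bars). Pdk1, Egln1 and Slc2a1 lie above 0 and Ndrg1 below 0 on every slide, whereas Car9 ranges from -0.17 to 0.21.

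The rest of the pathway was read through 5 gene lists chosen with earlier results of these data known. By limma, 0 genes passed in any list. Of the HIF subunits and oxygen-sensing genes, 9 of 10 were measured, 1 higher and 8 lower in HF-Q mice, with a median log2 fold change of -0.07 against -0.0038 over all genes. Epas1, the HIF-2 alpha subunit, averaged -0.16 ± 0.25 in HF-Q mice and 0.08 ± 0.24 in HF mice (SD), with a log2 fold change of -0.23 ± 0.10 (SE; limma, unadjusted p = 0.027, adjusted p = 0.952). The Epas1 estimate was 0.06 within slide 3, and it was -0.12 with array weights, -0.13 as a mean over its probes and -0.04 in the 16 mice. Egln2, the other prolyl hydroxylase, averaged -0.25 ± 0.11 in HF-Q mice and -0.14 ± 0.10 in HF mice, with a log2 fold change of -0.11 ± 0.05 (limma, unadjusted p = 0.035, adjusted p = 0.952). The Egln2 estimate was -0.01 with median centring, and -0.06 both as a mean over its probes and with the authors' deposited log2 values. Hif3a was the only one higher in HF-Q mice (0.08 ± 0.08). With median centring, 6 of these 9 were lower.
Endothelial and fibroblast markers, whose cells also express Epas1, were lower on average in HF-Q mice, with all 5 measured of each list lower, 0 past the limma threshold, and mean scores that differed by -0.10 (endothelial) and -0.33 (fibroblast). Endothelial scores ran from -0.24 to 0.23 in HF-Q mice and from -0.13 to 0.29 in HF mice, and fibroblast scores from -1.05 to 0.45 in HF-Q mice and from -0.21 to 0.62 in HF mice. Tek, an endothelial marker, was above background on 2 arrays. All measured markers of smooth muscle (6), pancreatic acinar (8), goblet (4) and erythroid cells (3) were lower too, with median log2 fold changes of -0.25, -0.55, -0.10 and -0.28, and 0 passed by limma. Not all lists were lower throughout. Of the crypt base and cycling markers 4 were higher and 2 lower (median 0.0057), and of the macrophage and dendritic markers 1 was higher and 4 lower (median -0.08). With the acinar and smooth muscle scores as covariates, the log2 fold change of Epas1 was -0.21 (limma, adjusted p = 0.411). In that fit 8 of the 9 oxygen-sensing genes were lower, and 14 of the 22 other hypoxia-induced genes described below. The part of the other cell types in the Epas1 value and in the counts of lower genes was not tested.

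All 18 genes of glycolysis and lactate handling were measured, 9 higher and 9 lower, with a median of 0.0029. The estimates ran from -0.08 to 0.12. Pgam1, which rearranges 3-phosphoglycerate, had 0.11 ± 0.07 and the phosphofructokinase gene Pfkp 0.09 ± 0.06, each exceeding the HF median in 10 of the 11 quercetin-fed mice, against -0.08 ± 0.07 for Pfkl, another phosphofructokinase, and -0.08 ± 0.08 for the pyruvate kinase gene Pkm. These are log2 fold changes with SE, and none passed (limma, adjusted p = 0.952 for each).

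Of 25 other hypoxia-induced genes 22 were measured, 6 higher and 16 lower, with a median of -0.06. Under median centring 11 of the 22 were lower, and in the 16 mice 13 of the 22. The lowest were the VEGF receptor gene Flt1 (-0.35 ± 0.18) and the collagen crosslinking enzyme gene Loxl2 (-0.29 ± 0.14), and the highest were Car12, another carbonic anhydrase (0.20 ± 0.12), and Fam162a, a mitochondrial protein gene (0.09 ± 0.07). None passed (limma, adjusted p = 0.952 for each). Flt1 was -0.55, -0.50 and -0.0070 within slides 1, 2 and 3, -0.23 with array weights or as a mean over its probes, and -0.22 in the 16 mice. Loxl2 was -0.15 as a mean over its probes. Flt1 is expressed by endothelial cells and Loxl2 by fibroblasts, whose marker scores are given above, and their part in these values was not tested. Kdr counts both in this list and among the endothelial markers, so the 2 are not separate.

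Iron uptake genes under HIF-2 in mouse duodenum showed 1 higher and 3 lower of 4, among them the ferric reductase gene Cybrd1 (-0.14 ± 0.10), the importer gene Slc11a2 (-0.06 ± 0.07) and the exporter gene Slc40a1 (0.15 ± 0.15). Of 8 gut barrier genes 6 were measured, 2 higher and 4 lower, and 1 of them, Tff3, is also among the goblet markers. Nt5e, which makes adenosine from AMP at the cell surface, averaged -0.27 ± 0.39 in HF-Q mice and 0.21 ± 0.24 in HF mice, and 2 of the 11 quercetin-fed mice exceeded the HF median. Its log2 fold change of -0.49 ± 0.12 had an unadjusted p of 6.8e-04 and did not pass (limma, adjusted p = 0.952), and it lay between -0.72 and -0.31 within slides. The mucin gene Muc3 had -0.31 ± 0.13, the adenosine receptor gene Adora2b 0.14 ± 0.12 and the creatine kinase gene Ckb 0.05 ± 0.08, and none passed (limma, adjusted p = 0.952, 0.952 and 0.961). Muc3 was -0.53 within slides 1 and 2 and 0.06 within slide 3. Enterocyte markers, whose cells express Muc3, were lower in HF-Q mice for 7 of 8, with 0 past the threshold. Their mean score ran from -0.34 to 0.49 in HF-Q mice and from -0.10 to 0.74 in HF mice, and their part in the barrier gene values was not tested.

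**Figure D3:**
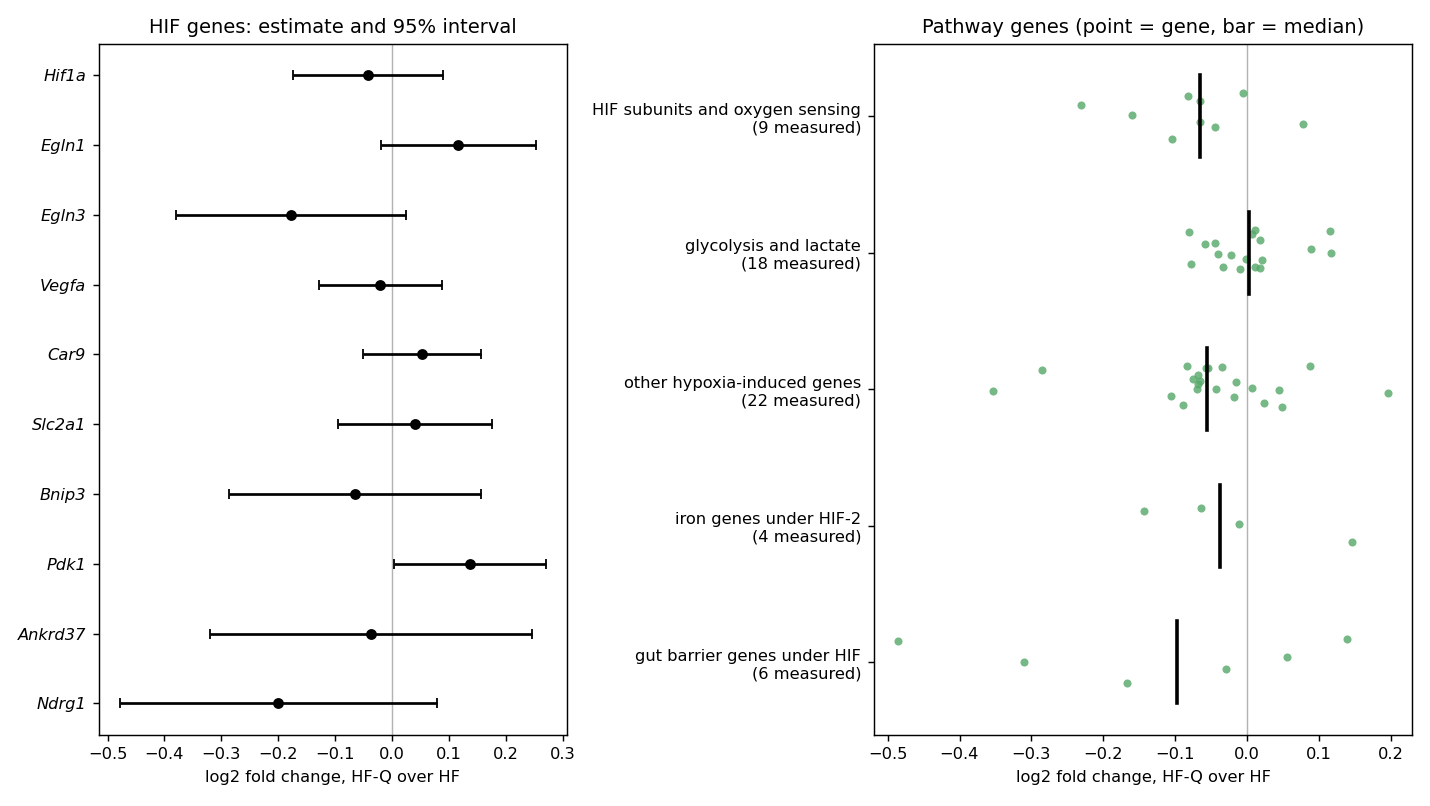
Left, log2 fold change HF-Q over HF (x axis) of the 10 genes with 95% confidence intervals from limma; right, log2 fold changes of the measured genes of the 5 pathway lists, 1 point per gene, with the list median as a bar. The interval of Pdk1 alone lies on 1 side of 0, at 0.0032 to 0.27, and list medians run from -0.10 to 0.0029.

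Co-variation over the 23 mice was examined for all 45 pairs of the 10 genes. Pearson's r was positive for 28 pairs and negative for 17, with a median of 0.09, against -0.01 over all pairs of genes tested. The median was -0.03 without HF replicate 3, 0.02 in the 16 mice and 0.20 with the authors' deposited log2 values. Mice share the reference pool and arrays share slides. By permutation with adjustment over the 45 pairs, only Bnip3 with Ndrg1 passed. That is 2.22% of the member pairs, against 2.44% of all gene pairs with an r of that size in either direction, so the share is near the background. No pair passed by Spearman's rank correlation.

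Bnip3 and Ndrg1 tended to be high or low in the same mice, with r = 0.670 (permutation p = 4.6e-04, adjusted p = 0.021) and rho = 0.640 (permutation p = 0.0012, adjusted p = 0.054). Not every mouse followed this. HF replicate 9, the lowest HF mouse for Bnip3 (-0.42), was at 0.19 for Ndrg1, and r was 0.790 without it. Without the 2 mice farthest from the Bnip3 median r was 0.638. It was 0.798 within HF-Q mice and 0.542 within HF mice, and 0.416, 0.717 and 0.922 within slides 1, 2 and 3. In the 16 mice r was 0.548 (permutation p = 0.026) with rho = 0.553 (permutation p = 0.028), and no pair passed the adjustment. In the 7 mice with low crypt scores r was 0.893 (exact permutation p = 0.0069) with rho = 0.929 (exact permutation p = 0.0067). Both sets were chosen after seeing the data, and the p values printed for them are unadjusted. With the other 2 Bnip3 probes r was 0.634 and 0.442. The call was lost without HF-Q replicate 1 (r = 0.635), HF-Q replicate 5 (r = 0.637) or HF replicate 3 (r = 0.617), and on deviations from the slide means (r = 0.662). HF-Q replicates 1 and 5 were the lowest mice for Ndrg1 and the lowest HF-Q mice for Bnip3.

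Slc2a1 ran against Ndrg1, at r = -0.548 (permutation p = 0.0063, adjusted p = 0.121) and rho = -0.522 (permutation p = 0.012, adjusted p = 0.260). It was negative within HF-Q mice (-0.669), within HF mice (-0.474) and within every slide (-0.571, -0.430 and -0.649), and -0.579 without the 2 farthest mice. HF-Q replicate 1 was the lowest mouse for Ndrg1 and the highest HF-Q mouse for Slc2a1. Egln3 and Pdk1 had r = -0.546 (permutation p = 0.0096, adjusted p = 0.121) and rho = -0.443 (permutation p = 0.036, adjusted p = 0.390), and r was -0.351 without the 2 farthest mice, -0.092 within HF-Q mice, -0.698 within HF mice and as near 0 as -0.333 with 1 mouse left out. Egln1 and Slc2a1 had r = 0.524 (permutation p = 0.011, adjusted p = 0.121) and rho = 0.385 (permutation p = 0.070, adjusted p = 0.394), with 0.175 within HF-Q mice and 0.632 within HF mice. These 3 pairs had the same sign on each slide and did not pass.

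**Figure D4:**
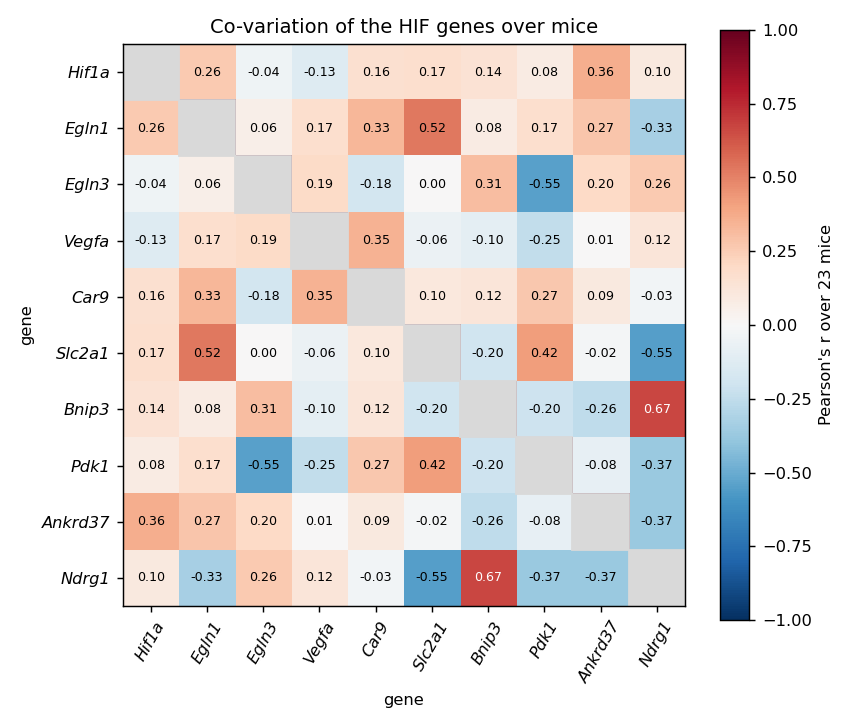
Pearson's r over 23 mice for each pair of the 10 genes (colour and number, from -1 to 1; grey diagonal not computed). Bnip3 with Ndrg1 is the highest at 0.67, and Slc2a1 with Ndrg1 and Egln3 with Pdk1 are the lowest at -0.55.

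Hif1a itself had a median r of 0.14 with the other 9 genes, and its highest was 0.36 with Ankrd37. Pdk1 and Ndrg1 had medians below 0 (-0.08 and -0.03). When arrays were centred on the median in place of loess, 11 of 45 pairs passed and the median r was 0.33, but the median over all gene pairs also moved to 0.19.

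Of 90 relations between the 10 genes and 9 cell type scores, 1 passed by permutation. Ankrd37 was lower in mice with a higher crypt base and cycling score, with r = -0.733 (permutation p = 4e-05, adjusted p = 0.0036) and rho = -0.542 (permutation p = 0.0082, adjusted p = 0.234). An r of that size in either direction was found for 9.66% of all genes tested other than the markers themselves. A count of 1 in these 10 genes is near that background share. In the 16 mice with higher scores r was -0.04 (permutation p = 0.877) and rho was 0.0029 (permutation p = 0.996). That set was cut on the score itself and spans less of its range, which lowers r. It therefore cannot show which mice the relation rests on. Within the 7 mice r was -0.75 (exact permutation p = 0.062) and rho was -0.68 (exact permutation p = 0.110). These 7 mice come from the same cut on the score, made after seeing the data, so their values cannot show it either. Over all mice the relation was -0.614 without the 2 farthest mice, -0.682 within HF-Q mice, -0.791 within HF mice, and -0.505, -0.827 and -0.844 within slides. Ankrd37 was also related to the acinar score at r = 0.511 (permutation p = 0.013, adjusted p = 0.269), to the enterocyte score at 0.472 (permutation p = 0.022, adjusted p = 0.269), to the smooth muscle score at -0.464 (permutation p = 0.025, adjusted p = 0.269), to the goblet score at 0.422 and to the fibroblast score at -0.411 (both adjusted p = 0.334). The Spearman values of these 5 relations were 0.531, 0.313, -0.440, 0.431 and -0.370 in the same order. None of the 5 passed. With the acinar and smooth muscle scores as covariates, the Ankrd37 diet estimate stayed negative and did not pass by limma. The part of these cell types in the Ankrd37 values was not otherwise tested. Between diets the crypt score differed by -0.02 (HF-Q minus HF).

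**Figure D5:**
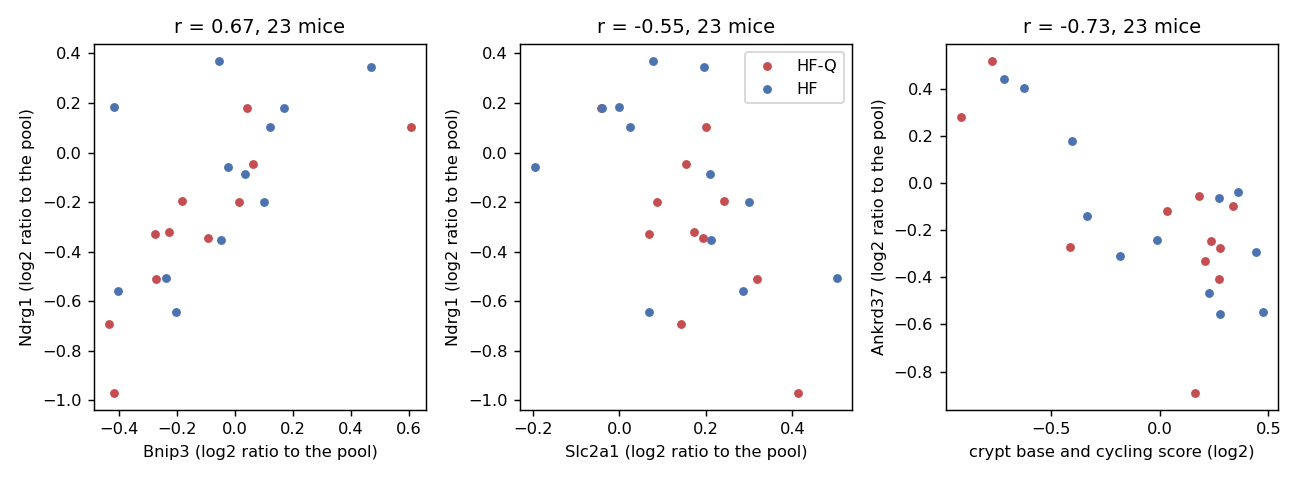
Log2 ratios to the pool in 23 mice (HF-Q red, HF blue): Ndrg1 against Bnip3 (left) and Slc2a1 (centre), and Ankrd37 against the crypt base and cycling score (right). Points run upward at left (r = 0.67) and downward in the centre and at right (r = -0.55 and -0.73), with both diets along each line. At right 7 mice have scores of -0.34 or lower, apart from the rest.

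For each gene, the 2 other named genes with the highest r over the 23 mice were taken as closest in pattern. These were the highest among all named genes tested, so their r values are descriptions. Hif1a was closest to Etfrf1 (0.869), an electron transfer flavoprotein regulator gene, and to Fbxw9 (0.745). Egln1 was closest to Tldc2 (0.799) and 9930012K11Rik (0.743), and Egln3 to the succinate receptor gene Sucnr1 (0.833) and the kinase gene Bmx (0.815). The others were Gm5878 (0.851) and Ulk3 (0.819) for Vegfa, and Paox (0.767) and Papss2 (0.654) for Car9. For Slc2a1 they were Mfsd1 (0.790) and the mucin-type glycosylation gene Galnt3 (0.775), and for Bnip3 Akr1c14 (0.839) and Kyat3 (0.833). Pdk1 was nearest Srp54c (0.801) and Rnf141 (0.795), Ankrd37 nearest Mmp23 (0.774) and Golt1a (0.769), and Ndrg1 nearest Gm3219 (0.822) and Svip (0.817). The 10 genes themselves were left out of this ranking.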

How the data were processed

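Agilent Feature Extraction 10.7.3.1 read the arrays, per the submitters' processing notes. The deposited scanner files hold intensity values on a linear scale, and the authors' log10 ratios of Cy5 over Cy3. The authors' deposited table of log2 values followed log2 Cy5 at r = 0.996 to 0.999 and has a common median of 9.11 per array, by a method not given in the sources used here. Here, limma 3.58.1 (R 4.3.3) corrected background with normexp (offset 50), normalized by loess within each array with 3671 control spots at weight 0, and took log2(Cy5/Cy3). Outlier spots (260 to 355 per array) were set to missing. Probes needed a Cy5 signal well above background in 50% or more of the mice of either diet (29293 of 55681 probes), and each gene took its brightest one. Names came from RefSeq of GRCm38.p6 by accession (27235 probes), symbol (3581) or synonym (565), or were kept from the file (24300). Probe positions are those of the files, on mm9. Whether they lie in exons or UTRs was not analysed here.

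Diets were compared in limma (lmFit, then eBayes; HF-Q over HF; 23 arrays), two-sided, with Benjamini-Hochberg adjustment across 21518 genes and a threshold of 0.05. Correlations used 100000 permutations, two-sided (Python 3.11.15, NumPy 2.4.6), adjusted over 45 pairs or 90 relations, with slide and diet values beside them. The limma fit across genes was checked on simulated data with known changes. Members and gene lists were chosen with earlier results of these data known. Named genes are the members, the 2 genes with the smallest unadjusted p in each direction of each pathway list, and the 2 nearest genes in pattern of each member. Alternatives varied background correction, normalization, the filter, the probe rule, weights, blocks and single mice, and a set of 16 mice was added after seeing the data.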

Additional observations from a re-analysis of the deposited data

How the results depend on the processing

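No member and no gene of a pathway list passed under any of the 41 settings of the limma fit, replicates left out included, and the lowest adjusted p of a member was 0.345. With the replicate number as a block the count of members and of genes passing was also 0, and so was the count of pairs passing on the differences within numbers (Bnip3 with Ndrg1, r = 0.648). The 11 shared replicate numbers were not treated as pairs in the main fit, although the low crypt scores fell on low numbers in both diets. Deviations of same-numbered mice correlated at -0.35 to 0.39 and exceeded 0.1 in 5 pairs, and 1 mouse correlated best with its own number. In the 16 mice with higher crypt scores, a set chosen after seeing the data, the sign turned for Ankrd37 (0.0118) and Bnip3 (0.0309) and 0 pairs passed. Median centring of each array turned the sign of Ankrd37 (0.0326), Bnip3 (0.0158), Hif1a (0.0309) and Vegfa (0.0557), where the median of all genes was 0.05. Within single slides the sign turned for Ankrd37 (0.0941), Bnip3 (0.0545) and Egln3 (0.0226) on slide 2, for Car9 (-0.172) on slide 1, and for Hif1a (0.0240) and Vegfa (0.164) on slide 3. Leaving out 1 mouse moved Ankrd37 between -0.105 and 0.0358 (without HF-Q replicate 6), the other 9 members keeping their sign, and without HF replicates 1 and 4 it was 0.0163 and 0.0126. Besides Pdk1, an unadjusted p under 0.05 in limma was reached by Egln1 in 3 fits without 1 mouse and by Car9 within 1 slide. Egln3 reached it in 2 other settings and Ndrg1 in 1. Egln1 was not tested where Cy5 had to exceed background on all 23 arrays. The number of pairs passing was 1, but 11 with median centring, 0 on deviations from the slide means, 2 on residuals after the acinar and muscle scores, and 0 to 2 when 1 mouse was left out (2 without HF replicate 7). The median r over pairs ran from -0.0301 (without HF replicate 3) to 0.111 when 1 mouse was left out. Nt5e was lower in HF-Q mice in all settings run. The cause of these changes was not tested. Signal limits Egln1 and the third Bnip3 probe, which lie near background, and the number of arrays, 23, limits the precision.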
